A study of Homo sapiens with 6 samples.

Results

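Amino acid transporters were examined in MDA-MB-231, a line of human triple-negative breast cancer cells that was made to produce oncostatin M (OSM), a cytokine of the IL-6 family. The 10 genes were chosen by symbol, namely SLC1A3, SLC1A4, SLC1A5, SLC3A2, SLC7A1, SLC7A2, SLC7A5, SLC7A11, SLC38A1 and SLC38A2, of 17687 named genes on the array. Each was measured by 1 transcript cluster, which is the set of probes that is summarized into 1 value for a gene. MDA-MB-231-hOSM carried the pUNO1-hOSM vector and its control, MDA-MB-231-hC, the empty pUNO1 vector. Both were stably transfected with 2 μg of plasmid, kept under blasticidin at 10 μg/mL and grown side by side, with RNA taken at 3 nonconsecutive passages (n = 3 Human Clariom S arrays per line), here read as sets 1, 2 and 3 of the labels. The samples are passages of 1 line each, and separate transfections are not stated. A difference that arose in transfection or selection and an effect of OSM therefore cannot be told apart, and in RNA of whole cultures neither can fewer cells with a transcript and less of it per cell.

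Amino acid transporters of the solute carrier (SLC) families bring amino acids across the plasma membrane for protein synthesis, energy and redox balance, and many tumors express them at high levels. SLC1 and SLC38 members move glutamate, glutamine and small neutral amino acids, and SLC7 members move leucine, arginine or cystine. Several SLC7 proteins reach the membrane only when bound to the heavy chain that SLC3A2 encodes. Shortage of amino acids activates the kinase GCN2 and the transcription factor ATF4, which is known to induce many of these genes.

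All values below are RMA log2 signals as deposited, so a difference of 1 is a 2-fold change. A gene is said to have risen or fallen when limma, with the set as a block, gave an adjusted p (Benjamini-Hochberg over 21448 transcript clusters) under 0.1. OSM itself checked the labels, with 14.90, 14.82 and 14.69 on the MDA-MB-231-hOSM arrays against 5.06, 5.11 and 5.26 on the MDA-MB-231-hC arrays (adjusted p = 1.75e-06). Within each set both arrays departed from the means of their lines by nearly equal amounts in opposite directions (r from −0.995 to −0.992 across transcript clusters), so the SDs within a line may leave out spread between passages. The arrays of the lines did not overlap for many genes, with MDA-MB-231-hOSM above for 22.2% and below for 27.7% of transcript clusters (50% together), and the same held for 2 and 6 of the 10 transporter genes. Since arrays were mirrored, this nearly equals a gap of 1 sign in every set (4764 above and 5950 below, against 4771 higher and 5960 lower in all sets). Lack of overlap therefore adds nothing to the gaps of the sets. As a guide to background, 349 olfactory receptor genes had mean signals with a 95th percentile of 5.77, and all 10 transporter genes lay above it on every array. Of 6 measured markers of the cell line, VIM was bright in both lines (16.36 in MDA-MB-231-hOSM and 16.30 in MDA-MB-231-hC) and ESR1, PGR and CDH1 lay below the guide, whereas EPCAM was measured well above it and fell (8.53 in MDA-MB-231-hOSM and 9.63 in MDA-MB-231-hC, adjusted p = 0.0525; from 0.128 to 0.211 with 1 set left out) and CD44 rose (14.64 in MDA-MB-231-hOSM and 13.93 in MDA-MB-231-hC, adjusted p = 0.0175; from 0.108 to 0.125 with 1 set left out). Of 6 measured leukocyte markers CSF1R rose and 5 did not pass, and of 5 fibroblast markers PDGFRB passed as lower and 4 did not pass. PTPRC (4.94 in MDA-MB-231-hOSM and 5.07 in MDA-MB-231-hC), CD3E, ITGAM and LYZ lay below the guide in both lines, whereas CD68 lay far above it (12.60 in MDA-MB-231-hOSM and 12.29 in MDA-MB-231-hC, adjusted p = 0.233). By their means, the fibroblast markers COL1A1 and COL1A2 lay above the guide in both lines, and PDGFRB, DCN and LUM below it, where a change cannot be judged. Neither CSF1R nor PDGFRB passed with 1 set left out (adjusted p from 0.121 to 0.287), and the part of these markers in the results was not tested.

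Among the 10 transporter genes, SLC38A2 was higher and SLC1A3 was lower in MDA-MB-231-hOSM, relative to MDA-MB-231-hC, and the other 8 did not pass. Over all transcript clusters 9.22% passed as higher and 10.4% as lower (19.7% in either direction), so the share of transporter genes that passed was close to that of the whole array. None of the 10 exceeded 2-fold, against 4.14% of transcript clusters that passed both thresholds (2.6% higher and 1.54% lower). The median log2 fold change of the 10 genes was −0.17, compared with −0.03 over all transcript clusters. Without the set as a block, 2 of the 10 passed as higher and 5 as lower, where 21.1% and 26.6% of all transcript clusters did so (47.7% in either direction). That fit treats the mirrored arrays of a set as separate, which understates the spread, so its counts carry no added weight. With the set as a block neither change passed at an adjusted p of 0.05.

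**Figure D1:**
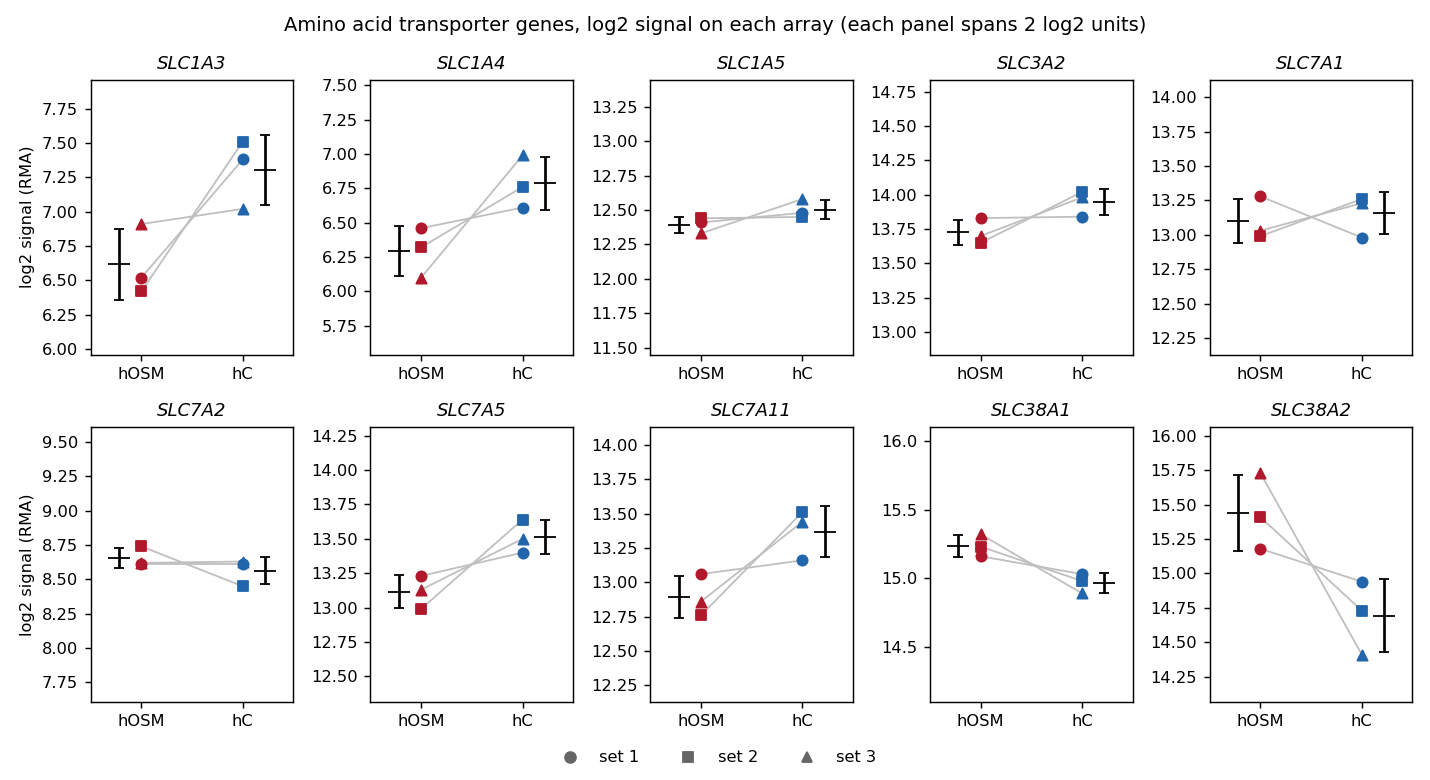
Log2 signal of the 10 amino acid transporter genes on each array, with MDA-MB-231-hOSM on the left and MDA-MB-231-hC on the right of every panel. Symbols are sets, gray lines join the arrays of a set, and black bars give the mean ± SD of 3 arrays. SLC38A2 lies higher and SLC1A3 lower in MDA-MB-231-hOSM, and the lines cross or run flat for SLC7A1 and SLC7A2.

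SLC38A2 encodes SNAT2, a sodium-coupled carrier of glutamine, alanine and other small neutral amino acids, which is known to be induced when amino acids run short. Its log2 signal was 15.18, 15.41 and 15.73 in sets 1, 2 and 3 of MDA-MB-231-hOSM, against 14.94, 14.73 and 14.41 in the same sets of MDA-MB-231-hC. All 3 MDA-MB-231-hOSM arrays lay above all 3 MDA-MB-231-hC arrays, and the gap ran from 0.24 in set 1 to 1.32 in set 3. The increase was 1.68-fold (log2 fold change 0.75, SE 0.21, 95% CI 0.24 to 1.26, adjusted p = 0.0716 from limma). The call was lost with any 1 set left out. The log2 fold change was 1.00 without set 1 (adjusted p = 0.108), 0.78 without set 2 (adjusted p = 0.248) and 0.46 without set 3 (adjusted p = 0.268).

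SLC38A1 encodes SNAT1, a close relative of SNAT2 with a similar range of substrates. Its log2 signal was 15.16, 15.23 and 15.32 in MDA-MB-231-hOSM, against 15.03, 14.98 and 14.89 in MDA-MB-231-hC. The arrays did not overlap here either, but the gap was small in every set, from 0.13 to 0.43. The log2 fold change was 0.27 (SE 0.13, 95% CI −0.04 to 0.58, adjusted p = 0.219), so the change did not pass, and its interval does not reach 2-fold. SLC38A1 passed with eBayes trend and robust settings (adjusted p = 0.043), but not with any 1 set left out (adjusted p from 0.298 to 0.496). In both SLC38 genes the gap was smallest in set 1 and largest in set 3, an order shown by 16.4% of all transcript clusters.

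SLC1A3 encodes EAAT1, a sodium-driven importer of glutamate and aspartate best known from astrocytes. Its log2 signal was 6.52, 6.42 and 6.91 in sets 1, 2 and 3 of MDA-MB-231-hOSM, against 7.38, 7.51 and 7.02 in the same sets of MDA-MB-231-hC. The arrays did not overlap, and the gap of set 3 (−0.11) was far smaller than those of set 1 (−0.86) and set 2 (−1.09). SLC1A3 fell by 0.69 on the log2 scale (SE 0.20, 95% CI −1.18 to −0.20, adjusted p = 0.0803 from limma). Without set 1 the log2 fold change was −0.60 (adjusted p = 0.304), without set 2 it was −0.485 (adjusted p = 0.318), and without set 3 it was −0.975 (adjusted p = 0.0958).

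SLC1A4 encodes ASCT1, an exchanger of alanine, serine, cysteine and threonine. ASCT1 transcript had a log2 signal of 6.46, 6.32 and 6.10 in MDA-MB-231-hOSM, against 6.61, 6.76 and 6.99 in MDA-MB-231-hC. The arrays of the lines did not overlap, and the gap was −0.15 in set 1, −0.44 in set 2 and −0.89 in set 3. The log2 fold change was −0.49 (SE 0.17, 95% CI −0.90 to −0.09, adjusted p = 0.113), which just failed to pass. SLC1A5 encodes ASCT2, the related exchanger that supplies many cancer cells with glutamine. The arrays read 12.41, 12.44 and 12.33 in MDA-MB-231-hOSM, against 12.48, 12.45 and 12.58 in MDA-MB-231-hC. These values differed by at most 0.25 within a set, and the log2 fold change of −0.11 (95% CI −0.41 to 0.19, adjusted p = 0.604) did not pass.

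SLC3A2 encodes the heavy chain of CD98, which carries SLC7 light chains to the plasma membrane. Its signal on the log2 scale was 13.83, 13.65 and 13.70 in MDA-MB-231-hOSM, against 13.84, 14.02 and 13.98 in MDA-MB-231-hC. Set 1 showed almost no gap (−0.01), and the log2 fold change was −0.22 (95% CI −0.54 to 0.10, adjusted p = 0.326). SLC7A5 encodes LAT1, the light chain that brings in leucine and other large neutral amino acids in exchange for glutamine. For LAT1 the log2 signal was 13.23, 12.99 and 13.13 in MDA-MB-231-hOSM, against 13.40, 13.64 and 13.50 in MDA-MB-231-hC. The MDA-MB-231-hOSM arrays were the lower ones throughout, with a log2 fold change of −0.40 (SE 0.14, 95% CI −0.74 to −0.06, adjusted p = 0.123) that did not pass.

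SLC7A11 encodes xCT, the light chain that imports cystine for glutathione synthesis in exchange for glutamate. The log2 signal of SLC7A11 was 13.06, 12.76 and 12.86 in MDA-MB-231-hOSM, against 13.16, 13.51 and 13.44 in MDA-MB-231-hC. The gap was −0.10 in set 1 and −0.75 in set 2, with no overlap of the lines. The log2 fold change was −0.48 (SE 0.16, 95% CI −0.86 to −0.09, adjusted p = 0.109), which just failed to pass. SLC7A11, SLC7A5 and SLC1A4 had an adjusted p from 0.0834 to 0.0906 when only the 14295 brightest transcript clusters were tested, and all 3 passed there. With quantile normalization SLC7A11 (adjusted p = 0.0993) and SLC7A5 (adjusted p = 0.0988) passed narrowly and SLC1A4 did not (adjusted p = 0.105). The same split was seen with eBayes trend and robust settings (0.025, 0.0278 and 0.108). None of the 3 passed with any 1 set left out (adjusted p from 0.123 to 0.373).

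SLC7A1 and SLC7A2 encode CAT1 and CAT2, carriers of arginine, lysine and ornithine that work without a heavy chain. The log2 signal of SLC7A1 was 13.28, 12.99 and 13.03 in MDA-MB-231-hOSM, against 12.98, 13.26 and 13.23 in MDA-MB-231-hC. The lines overlapped, with MDA-MB-231-hOSM the higher in set 1 and the lower in sets 2 and 3 (log2 fold change −0.06, 95% CI −0.43 to 0.32, adjusted p = 0.840). For SLC7A2 the log2 signal was 8.61, 8.74 and 8.62 in MDA-MB-231-hOSM, against 8.61, 8.45 and 8.63 in MDA-MB-231-hC. These overlapped as well, and a gap appeared in set 2 alone (log2 fold change 0.09, 95% CI −0.22 to 0.40, adjusted p = 0.679). The intervals of both genes exclude a 2-fold change in either direction before any allowance for the number of genes.

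Set by set, SLC3A2, SLC7A1, SLC7A5 and SLC7A11 had the same order of gaps, highest in set 1 and lowest in set 2. This order was shown by 16.2% of all transcript clusters, and with 3 sets no relation between genes was tested. The remaining members followed other orders.

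**Figure D2:**
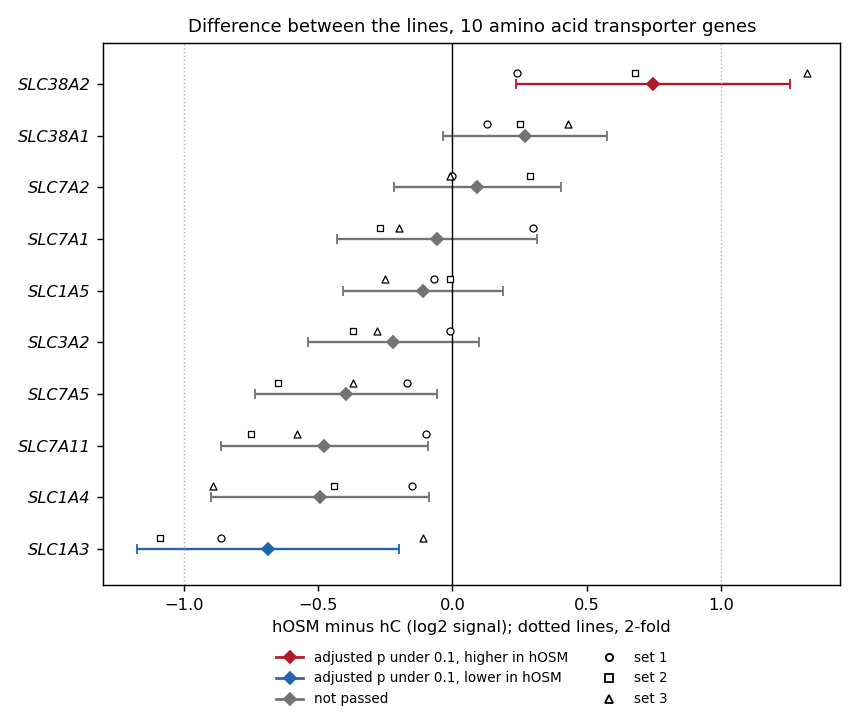
Difference in log2 signal, MDA-MB-231-hOSM minus MDA-MB-231-hC, for the 10 amino acid transporter genes. Diamonds and bars give the log2 fold change and its 95% CI from limma with the set as a block, colored by call, and open symbols give the difference in each set. SLC38A2 at 0.75 and SLC1A3 at −0.69 are the genes that passed, and the difference of the other 8 lies between −0.49 and 0.27.

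RefSeq promoter windows of GRCh38.p14, from 250 bases before to 50 bases after a transcript start, matched 8 of the 10 genes with 16 windows. They were searched on both strands for the letters of the C/EBP-ATF response element through which ATF4 acts (TGATGNAA), for the STAT site (TTCNNNGAA), since OSM signals through STAT3, for the E-box bound by MYC (CACGTG) and for the antioxidant response element bound by NRF2 (TGACNNNGC). The matches in these windows did not overlap each other. TGATGNAA was found in 6 of the 16 windows, each of a different gene, and in 3.62% of 35116 windows of all genes. The STAT letters were found in 4 of the 16 windows (7.66% of all windows), those of the E-box in 2 (7.26%) and those of the antioxidant response element in 5 (13.3%). The sites with TGATGNAA are shown 5′ to 3′ on the strand of the gene, with the match in capitals, because this was the motif found in the largest number of the 16 windows. For SLC1A4 and SLC3A2 the match is the reverse complement, and those of SLC3A2 and SLC7A1 lie after the transcript start.
SLC1A3, chr5:36596358-36596385 (+): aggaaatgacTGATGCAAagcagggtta
SLC1A4, chr2:64989382-64989409 (+): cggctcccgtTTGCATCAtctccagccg
SLC1A5, chr19:46784894-46784921 (−): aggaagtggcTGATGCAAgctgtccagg
SLC38A1, chr12:46266503-46266530 (−): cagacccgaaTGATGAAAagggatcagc
SLC3A2, chr11:62881726-62881748 (+): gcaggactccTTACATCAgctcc
SLC7A1, chr13:29595664-29595691 (−): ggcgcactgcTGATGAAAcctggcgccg

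SLC1A3, which fell, held both a TGATGNAA and a STAT match in the window shown here, and SLC38A2, which rose, held no match to any of the 4 motifs in its window. SLC1A3 had 3 windows, of which that of the most upstream start is shown, and SLC38A2 had 1. More sequence was therefore searched for SLC1A3. The 250 bases before these starts are shown for both genes that passed, with the TGATGNAA and STAT letters in capitals. A match describes letters only, and its absence from a window says nothing about the factor.
SLC1A3, chr5:36596338-36596587 (+): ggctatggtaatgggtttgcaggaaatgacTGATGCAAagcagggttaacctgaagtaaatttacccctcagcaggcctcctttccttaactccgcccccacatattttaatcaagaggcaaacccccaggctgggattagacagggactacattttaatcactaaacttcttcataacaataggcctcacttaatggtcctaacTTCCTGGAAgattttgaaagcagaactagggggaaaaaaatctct
SLC38A2, chr12:46372774-46373023 (−): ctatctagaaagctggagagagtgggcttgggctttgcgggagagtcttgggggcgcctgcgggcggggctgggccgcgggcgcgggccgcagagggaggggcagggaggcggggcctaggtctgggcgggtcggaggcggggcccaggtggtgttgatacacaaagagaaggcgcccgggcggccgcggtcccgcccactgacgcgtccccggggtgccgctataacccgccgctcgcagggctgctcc

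Of 42 other amino acid transporters of the plasma membrane and lysosome, 6 rose, 2 fell and 34 did not pass, with a median log2 fold change of 0.03. Over all transcript clusters 9.22% passed as higher and 10.4% as lower (19.7% in either direction), so the share that passed was again close to that of the array. SLC6A14, a broad carrier of neutral and cationic amino acids, exceeded 2-fold, with 5.71, 6.08 and 5.95 in MDA-MB-231-hOSM against 4.74, 4.42 and 4.52 in MDA-MB-231-hC (log2 fold change 1.35, SE 0.16, adjusted p = 0.00506). Its MDA-MB-231-hC arrays lay below the guide to background, so the size of the change is limited by it, and without set 3 it did not pass (adjusted p = 0.109). SLC38A7, a lysosomal exporter of glutamine, passed as higher, also from a level below the guide, which limits its size too (6.11 ± 0.23 in MDA-MB-231-hOSM and 5.12 ± 0.25 in MDA-MB-231-hC, SD, n = 3 arrays; limma adjusted p = 0.0262). The call was lost without set 2 (adjusted p = 0.127) or set 3 (adjusted p = 0.180). SLC38A9, which reports lysosomal arginine to mTORC1, was 1.34-fold higher (adjusted p = 0.0902; from 0.165 to 0.291 with 1 set left out). The rest of the 6 were SLC7A6 and, named after their values were seen, SLC6A6, the taurine carrier (1.58-fold), and SLC38A10 (1.39-fold).

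SLC7A6 is a light chain that pairs with SLC3A2 and exchanges arginine for glutamine, and it was higher in MDA-MB-231-hOSM. Its arrays read 11.40, 11.34 and 11.41 in MDA-MB-231-hOSM, against 10.75, 10.78 and 10.72 in MDA-MB-231-hC. The gap was even over the sets, from 0.56 to 0.69 (log2 fold change 0.63, SE 0.12, 95% CI 0.35 to 0.92, adjusted p = 0.0230 from limma). With any 1 set left out the log2 fold change was between 0.605 and 0.67 but the adjusted p was from 0.119 to 0.152. SLC7A7, SLC7A8 and SLC7A10, which also pair with SLC3A2, lay below the guide to background in both lines, at 4.15, 3.45 and 4.31 in MDA-MB-231-hOSM and 4.33, 3.40 and 4.08 in MDA-MB-231-hC, so a change there cannot be judged.

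Those that fell were SLC38A4 and SLC16A10. SLC38A4 encodes a relative of SLC38A2 that carries neutral amino acids and is best known from liver, and its log2 signal was 6.16 ± 0.26 in MDA-MB-231-hOSM, against 7.02 ± 0.30 in MDA-MB-231-hC (SD, n = 3 arrays; log2 fold change −0.86, SE 0.21, limma adjusted p = 0.0503). SLC16A10 encodes a carrier of tryptophan, tyrosine and phenylalanine, and its log2 signal was 6.23, 6.45 and 6.79 in MDA-MB-231-hOSM, against 7.61, 7.39 and 7.11 in MDA-MB-231-hC (log2 fold change −0.88, SE 0.21, adjusted p = 0.0440). The lines did not overlap for either gene, and the gap varied over the sets from −1.49 to −0.45 for SLC38A4 and from −1.38 to −0.32 for SLC16A10. SLC38A4 did not pass with any 1 set left out (adjusted p from 0.127 to 0.208). SLC16A10 passed only without set 3 (adjusted p = 0.0958) and not without set 1 (adjusted p = 0.200) or set 2 (adjusted p = 0.220).

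**Figure D3:**
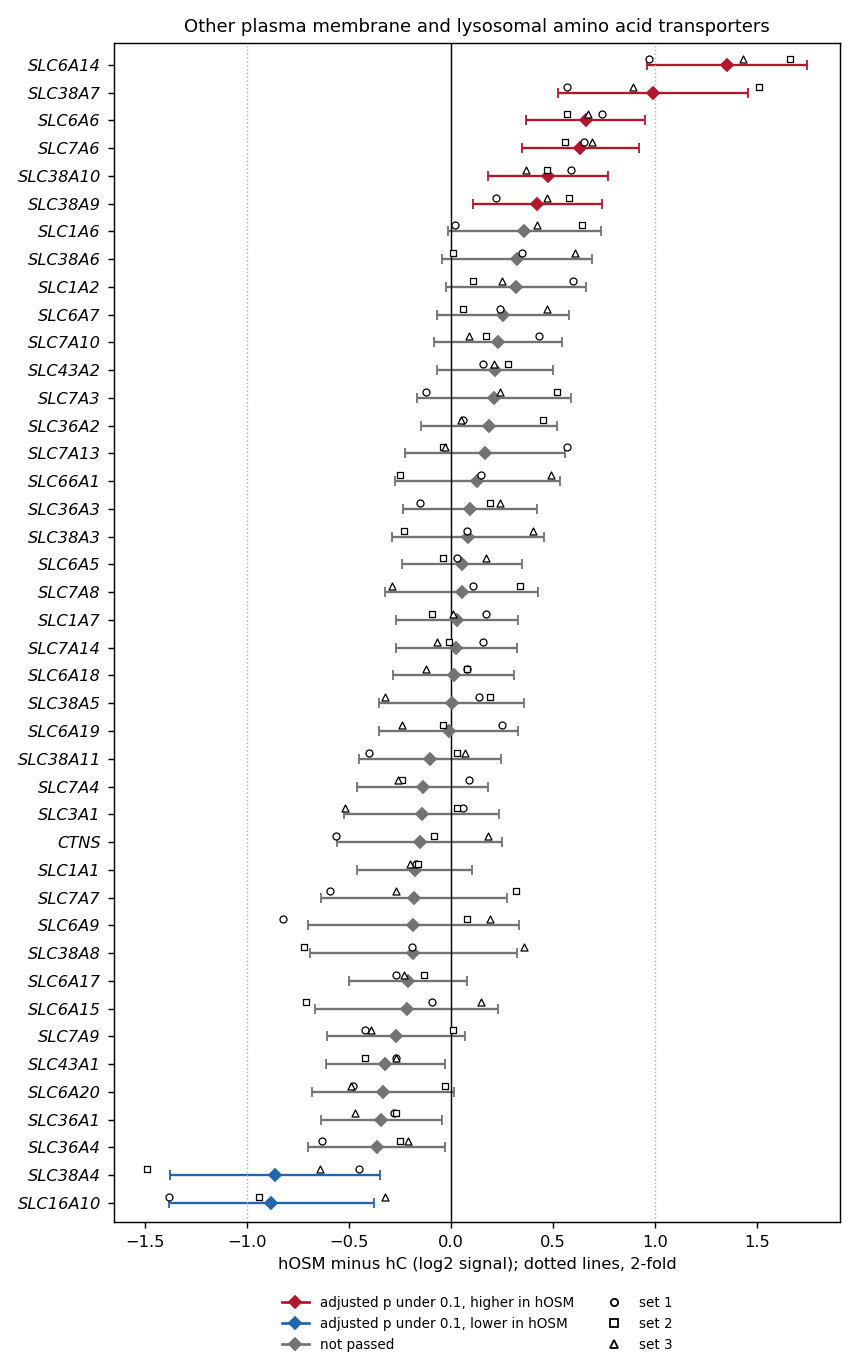
Difference in log2 signal, MDA-MB-231-hOSM minus MDA-MB-231-hC, for 42 other amino acid transporters. Diamonds and bars give the log2 fold change and 95% CI from limma with the set as a block, colored by call, and open symbols the difference in each set. SLC6A14 at 1.35 is the gene past 2-fold, and 34 of the 42 did not pass.

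Genes of the amino acid response went in both directions. Of 24 measured, 4 rose, 4 fell and 16 did not pass (median log2 fold change −0.09), where 9.22% of all transcript clusters rose and 10.4% fell. ATF4 itself was level, with 12.32, 12.42 and 12.51 in MDA-MB-231-hOSM against 12.52, 12.43 and 12.34 in MDA-MB-231-hC (log2 fold change −0.01, 95% CI −0.33 to 0.30, adjusted p = 0.957). ATF4 is controlled mainly through its translation, which these arrays do not measure. Those that fell were led by enzymes that make amino acids. On the log2 scale the change was −1.45 for PHGDH, the first enzyme of serine synthesis (adjusted p = 0.00250), −1.36 for ASNS, asparagine synthetase (adjusted p = 0.00732), and −0.85 for PSAT1, the next enzyme of serine synthesis (adjusted p = 0.00862). Without set 3 ASNS (adjusted p = 0.126) and PSAT1 (adjusted p = 0.107) did not pass. CHAC1, which degrades glutathione, had the smallest of these decreases. DDIT4, an inhibitor of mTORC1 that stress and hypoxia induce, rose the most, to 12.47 ± 0.31 in MDA-MB-231-hOSM against 10.81 ± 0.38 in MDA-MB-231-hC (SD, n = 3; log2 fold change 1.66, adjusted p = 0.0117 from limma), and did not pass without set 1 (adjusted p = 0.106). CEBPB, TRIB3 and WARS1 were the other genes that rose.

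**Figure D4:**
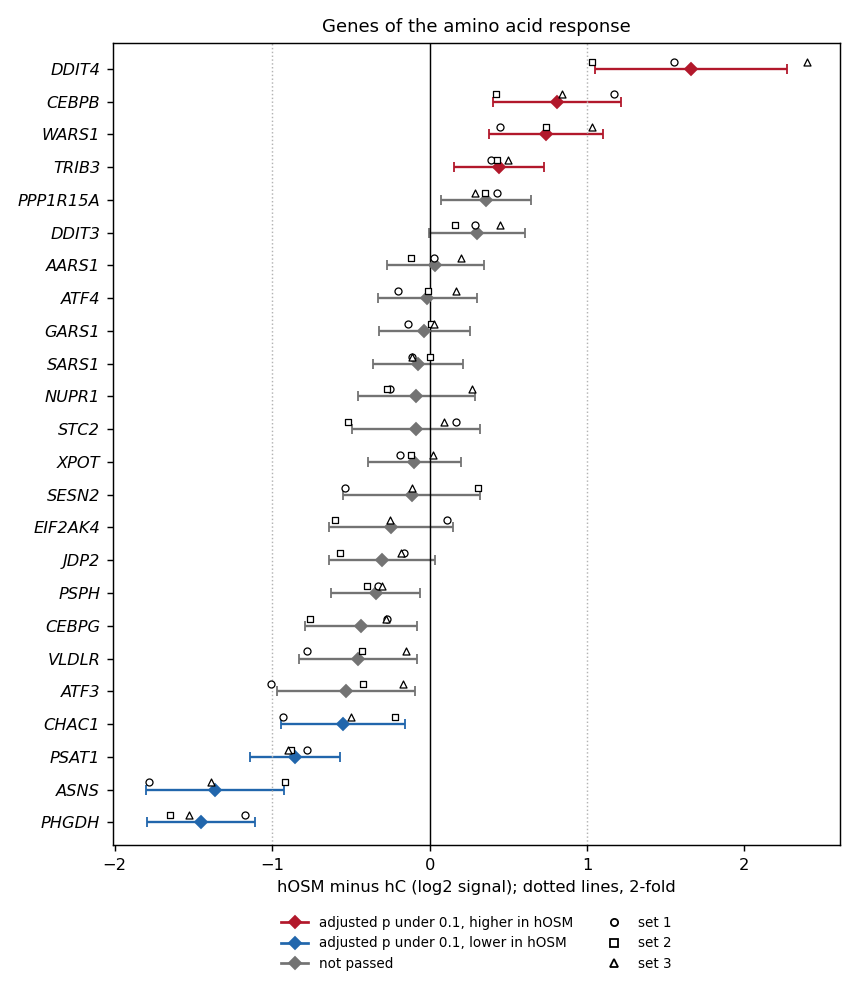
Difference in log2 signal, MDA-MB-231-hOSM minus MDA-MB-231-hC, for 24 measured genes of the amino acid response, drawn as log2 fold change with 95% CI from limma (diamonds, colored by call) and as the difference in each set (open symbols). DDIT4 at 1.66 stands at one end and PHGDH at −1.45 at the other, with ATF4 at −0.01 between them.

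Of 7 measured genes listed as other regulators, direct or indirect, of transporter gene transcription, 5 rose, none fell and 2, MYCN and KEAP1, did not pass (median log2 fold change 0.52). The shares over all transcript clusters were 9.22% higher and 10.4% lower. EPAS1, which encodes HIF2α, had the largest increase of the 5, at 25.6-fold, with 14.89, 14.52 and 15.01 in MDA-MB-231-hOSM against 10.01, 10.46 and 9.91 in MDA-MB-231-hC (log2 fold change 4.68, SE 0.21, adjusted p = 0.000188). BACH1, a repressor of antioxidant genes, was 3.36-fold higher (adjusted p = 0.00124). MYC, an activator of SLC1A5 and SLC7A5 in other settings, exceeded its control level 1.47-fold (12.49 ± 0.04 in MDA-MB-231-hOSM and 11.93 ± 0.03 in MDA-MB-231-hC, SD, n = 3; adjusted p = 0.0331 from limma). HIF1A was 1.43-fold higher (adjusted p = 0.0489), and NFE2L2, which encodes NRF2, a known activator of SLC7A11, was 1.36-fold higher (adjusted p = 0.0723). With 1 set left out MYC had an adjusted p from 0.144 to 0.161, HIF1A from 0.144 to 0.218 and NFE2L2 from 0.184 to 0.262. These 3 did not pass there, at log2 fold changes from 0.52 to 0.58, from 0.435 to 0.595 and from 0.365 to 0.495. EPAS1 and BACH1 passed with any 1 set left out.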

How the data were processed

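RNA of both MDA-MB-231 lines was hybridized to Human Clariom S arrays, 6 in all. The authors deposited log2 signals, which the submitters' processing notes ascribe to RMA in the Transcriptome Analysis Console 4.0, and these were used as they stood. For the variant of RMA, the library version and the build behind the array, the entry is: not given in the sources used here. Platform annotation named 1 gene for 17709 of 21448 transcript clusters, updated through RefSeq (GRCh38.p14), and the brightest transcript cluster stood for a gene. MDA-MB-231-hOSM minus MDA-MB-231-hC was fitted in limma 3.58.1 under R 4.3.3 (eBayes), with the set as a block and Benjamini-Hochberg adjustment over all transcript clusters. Calls used an adjusted p under 0.1, with the methods' further limit of 2-fold where stated. The fit was tested on simulated data with changes of 2-fold or more, so that test does not cover the smaller changes of the transporter genes. CIs are for single genes, and their precision is limited by the number of arrays.

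The pairing comes from the labels, which give the set number to both lines, grown in parallel. The deviations of the arrays of a set correlated at −0.993, −0.995 and −0.992 in sets 1, 2 and 3, and the SD between sets had a median of 0.00764 for the set mean and of 0.225 for hOSM minus hC. Set means were therefore nearly constant as deposited, and p-values rest only on how differences varied over 3 passages. For each gene, eBayes draws this variance toward that of all transcript clusters. The 10 genes and the gene lists (other transporters, mitochondrial carriers, amino acid response, transcription regulators, enzymes, mTORC1 sensing and markers) were chosen with earlier results of these data known. Named genes are the 10, OSM, the other partners of SLC3A2, ATF4, MYC, NFE2L2 and up to 4 genes with the largest change among those that passed in each list; others were chosen after their values were seen. Alternatives were no block, quantile normalization, median centring, testing only the 14295 brightest transcript clusters, an adjusted p under 0.05, eBayes with trend and robust settings, averaging a gene's transcript clusters, and leaving out each set, both arrays at once, since a lone array adds nothing to a blocked fit.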

Additional observations from a re-analysis of the deposited data

How the results depend on the processing

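Among the 10 transporter genes, 1 rose and 1 fell with the set as a block. Without the replicate block these counts were 2 and 5, with eBayes trend and robust settings 2 and 3, and at an adjusted p under 0.05 they were 0 and 0. All counts without the block understate the spread, because the mirrored arrays of a set are treated there as separate. Quantile normalization left 3 that fell, and testing only the 14295 brightest transcript clusters left 4. Without 1 set at a time 0 rose and 0 to 1 fell. Over all transcript clusters 1977 rose and 2240 fell, against 4530 and 5705 without the block, 1285 and 1312 at an adjusted p under 0.05, and 457 to 724 and 297 to 584 without 1 set. Of the other transporters 6 rose and 2 fell, against 12 and 9 without the block, 4 that fell among the brightest transcript clusters, and 0 to 2 and 0 to 1 without 1 set. No transporter gene of the 10 passed 2-fold under any of these settings.

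5 named genes that had not passed changed sign. With 1 set left out SLC7A1 ranged from −0.235 to 0.05 (0.015 without set 3), SLC7A2 from −0.005 to 0.145, SLC7A8 from −0.09 to 0.225, SLC7A7 from −0.43 to 0.025 and ATF4 from −0.105 to 0.08. Apart from these, the 10 genes kept their side of the threshold in 77 comparisons with an alternative, passed newly in 13 and no longer passed in 7. The cause was not tested. Dimmer genes gave no value among the brightest transcript clusters. With 3 sets, changes under 2-fold in single genes often lost their call when 1 set was left out. Far fewer transcript clusters passed then, so a lost call alone does not show that a change differed between sets.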

Other observations

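Enzymes that use the carried amino acids went both ways, with 4 of 23 measured higher, 4 lower and 15 that did not pass in MDA-MB-231-hOSM (median log2 fold change 0.12). For this list and those below, the shares over all transcript clusters were 9.22% higher and 10.4% lower. KYNU, kynureninase, had a log2 signal of 8.10, 7.71 and 8.29 in MDA-MB-231-hOSM, against 5.91, 6.26 and 5.67 in MDA-MB-231-hC (4.25-fold higher, adjusted p = 0.00342). In MDA-MB-231-hC it lay near the guide to background, and below it in set 3, which limits the size of the change. TDO2, which opens the tryptophan ring, passed as higher (6.58 in MDA-MB-231-hOSM and 5.61 in MDA-MB-231-hC, adjusted p = 0.00962; adjusted p = 0.110 without set 2), but its MDA-MB-231-hC arrays lay below the guide, so the size of the change is limited by it. IDO1, which acts at the same step as TDO2, did not pass (5.77 in MDA-MB-231-hOSM and 5.48 in MDA-MB-231-hC, adjusted p = 0.524). The mean of IDO1 lay at the guide in MDA-MB-231-hOSM and below it in MDA-MB-231-hC, so a change there cannot be judged. NOS3, counted among the enzymes that passed as lower, lay below the guide in both lines, so a change there cannot be judged. ASS1, which lets cells make arginine from citrulline, reached 2.48-fold (7.25 ± 0.30 in MDA-MB-231-hOSM and 5.94 ± 0.32 in MDA-MB-231-hC, SD, n = 3; adjusted p = 0.0191 from limma), and did not pass without set 2 (adjusted p = 0.147). CTH, which makes cysteine inside the cell, changed by −0.93 on the log2 scale (adjusted p = 0.0137; adjusted p = 0.125 without set 3).

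Of 7 measured mitochondrial amino acid carriers, SLC25A22, a glutamate carrier, was lower, at −0.76 on the log2 scale (adjusted p = 0.0276), and 5 did not pass. SLC25A2 passed as higher, but its signal lay below the guide to background in both lines (4.41 in MDA-MB-231-hOSM and 3.68 in MDA-MB-231-hC), so a change there cannot be judged. With any 1 set left out neither passed (adjusted p from 0.117 to 0.148 for SLC25A22 and from 0.119 to 0.189 for SLC25A2). Of 33 genes of mTORC1 amino acid sensing, SLC38A9, which is also among the transporters, rose, 3 passed as lower and 29 did not pass. DEPDC5, a subunit of an mTORC1 inhibitor, changed by −0.72 on the log2 scale (adjusted p = 0.0359) and SEH1L by −0.38 (adjusted p = 0.0917). The third, CASTOR1, an arginine sensor, had mean signals below the guide in both lines (5.03 in MDA-MB-231-hOSM and 5.73 in MDA-MB-231-hC), so a change there cannot be judged. None of the 3 passed with any 1 set left out (adjusted p from 0.124 to 0.278).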
